A study of Mus musculus with 12 samples.

Results

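The daily time course of mice on a high-fat diet is described here from 6 of the 12 libraries of the series, chosen by their labels alone: 2 libraries at each of 9h, 15h and 21h. RNA was sequenced from male C57BL/6 mice that were 6 to 8 weeks old when the diets began and lived under 12 h of light and 12 h of darkness. The high-fat diet gave 60 kcal% of its energy as fat and the standard diet 10 kcal%, and the other 6 libraries come from the standard diet at the same 3 times. The sample labels state 3 months of feeding and the series text 4 months, and the clock hour of lights-on was not found in the sources. The tissue label is meibomian gland, the sebaceous gland of the lid margin whose lipid coats the tear film, but according to the series text entire eyelids were taken, so striated muscle, skin, hair follicles and conjunctiva can be in each sample. Whether mice were pooled into a library is not stated, so every p-value measures the spread between libraries, which may be technical in part. Libraries are named by time and by the number in the label, as in "9h library 6"; a shared number does not mark a shared mouse.

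The circadian clock of mammalian cells is a feedback loop of transcription. The activators BMAL1 (gene Arntl) and CLOCK, or its relative NPAS2, bind E-boxes in promoters and drive the Per and Cry genes, whose proteins then shut the activators down. A further loop runs through the REV-ERB receptors (Nr1d1 and Nr1d2), which repress Arntl, and the PAR bZIP factors Dbp, Tef and Hlf pass the rhythm on to output genes through D-boxes. Peripheral clocks of this kind run in most tissues, and feeding time and diet are known to act on them.

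Depth was 14079167 to 17415674 recovered reads in the high-fat libraries, and 12136 to 12732 genes exceeded 1 FPKM in each, where FPKM is reads per kilobase of exon and sequencing depth. The lowest of these gene counts belonged to 9h library 7, whose median gene also lay 0.10 log2 below the mean of all libraries. Meibocyte and sebocyte genes summed to 4070 to 6260 FPKM over the high-fat libraries, and skeletal muscle genes to 3410 to 9410 FPKM, so both the labelled gland and muscle were present in every library.

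Promoter letters that the clock is known to read can be seen upstream of 4 clock genes whose lowest or near-lowest levels lay at 9h in high-fat mice. They were picked from the clock genes with a match, so the choice cannot show that motif and time pattern go together. Dbp and Nr1d2, lowest in both 9h libraries, had no E-box, E-prime box or D-box in their windows. Per1 and Bhlhe41 had an E-box and overlapped between times. Each run holds the 250 bases before the RefSeq start (build GRCm38.p6), 5′ to 3′ on the strand of the gene. Capitals mark an E-box (CACGTG), the related E-prime box (CACGTT, read here on the other strand as AACGTG) or a D-box (TTANGTAA).
Cry1 (chr10:85185055-85185304, minus strand): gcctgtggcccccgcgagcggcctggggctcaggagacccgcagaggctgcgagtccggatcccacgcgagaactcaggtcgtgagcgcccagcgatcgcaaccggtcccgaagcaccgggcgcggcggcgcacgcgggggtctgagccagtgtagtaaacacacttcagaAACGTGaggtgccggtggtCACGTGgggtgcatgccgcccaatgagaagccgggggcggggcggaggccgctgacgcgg
Ciart (chr3:95882229-95882478, minus strand): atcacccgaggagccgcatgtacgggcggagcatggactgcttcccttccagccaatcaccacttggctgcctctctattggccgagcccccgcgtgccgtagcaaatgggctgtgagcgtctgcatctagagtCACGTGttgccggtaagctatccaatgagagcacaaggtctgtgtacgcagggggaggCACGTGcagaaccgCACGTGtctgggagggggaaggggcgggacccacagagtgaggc
Tef (chr15:81802423-81802672, plus strand): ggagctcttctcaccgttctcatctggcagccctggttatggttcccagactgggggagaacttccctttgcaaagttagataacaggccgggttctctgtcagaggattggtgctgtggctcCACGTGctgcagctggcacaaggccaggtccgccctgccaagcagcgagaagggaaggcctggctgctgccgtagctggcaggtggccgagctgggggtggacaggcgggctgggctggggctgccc
Per3 (chr4:151044666-151044915, minus strand): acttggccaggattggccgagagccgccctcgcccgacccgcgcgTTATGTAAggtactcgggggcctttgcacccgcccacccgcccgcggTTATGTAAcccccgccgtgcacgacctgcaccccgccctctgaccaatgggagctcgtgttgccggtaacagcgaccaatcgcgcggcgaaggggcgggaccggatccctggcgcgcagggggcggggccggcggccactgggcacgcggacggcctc
Counting back from the start, the first base of the E-box stood at -60 in Cry1 and at -127 in Tef, and Ciart held 3 E-boxes, at -116, -58 and -44. The E-prime box of Cry1 began at -79, and the D-boxes of Per3 began at -205 and -158. Both strands were searched, and the motifs share no bases in these windows. Of the 21 clock genes listed, 18 had a RefSeq window, 24 windows in all, since some genes have more than 1. By gene, 5 held an E-box in any window (Bhlhe41, Ciart, Cry1, Per1 and Tef), 4 an E-prime box (Cry1, Cry2, Nr1d1 and Rorb) and 2 a D-box (Per3 and Rorb). By window these were 6, 4 and 2 of the 24, and over all 32851 windows of this length the shares were 6.02%, 3.85% and 2.06%. The core letters of the ROR and REV-ERB element (AGGTCA) were in 4 of the 18 genes (Clock, Nfil3, Nr1d2 and Per1). By window this was 4 of the 24, beside 14.0% of all windows. The cyclic AMP element (TGACGTCA) was in 1 window, of Hlf, beside 1.55%. A match is only a run of letters, and binding was not measured.

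The first question was whether any transcript differed between the 3 times within high-fat mice. No gene passed: of 13228 genes above 1 FPKM in at least 2 of the 12 libraries, 0 (0.0%) had an adjusted p under 0.05 in limma's F test of time, and the smallest adjusted p was 0.221, shared by Myod1 and Per2. Without adjustment 1155 genes (8.73%) had a p under 0.05. The pairwise comparisons called 0 genes (0.0%) each as well. Below 0.05 without adjustment were 1193 genes (9.02%) for 15h against 9h, 602 (4.55%) for 21h against 15h and 1301 (9.84%) for 21h against 9h. By direction these were 475 genes (3.59%) higher and 718 (5.43%) lower at 15h than at 9h, 452 (3.42%) higher and 150 (1.13%) lower at 21h than at 15h, and 570 (4.31%) higher and 731 (5.53%) lower at 21h than at 9h. The smallest adjusted p was 0.187 for 15h against 9h, 0.740 for 21h against 15h and 0.068 for 21h against 9h.

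Leaving out 9h library 6 moved these counts more than leaving out any other library, and 9h then rested on library 7 alone. Library 7 was the more distant of the 9h pair. Its median absolute difference over genes from the 15h and 21h libraries was 0.219 to 0.249 log2. For library 6 it was 0.143 to 0.163. Without 9h library 6 the F test called 63 genes, 15h against 9h called 472 and 21h against 9h called 641, with the single remaining 9h library assumed to vary like the other groups. Leaving out 15h library 2 gave 3 genes by the F test (Mstn, Ampd1 and Ear2) and 11 for 15h against 9h. Leaving out 21h library 6 gave 1 gene for 21h against 9h, Nmrk2. Each other library, when left out, gave 0 in all 4 tests, and 21h against 15h gave 0 throughout. The unadjusted counts moved too: genes with a p under 0.05 in the F test numbered 2889 without 9h library 6, 1424 without 15h library 6 and 754 without 21h library 3.

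**Figure D1:**
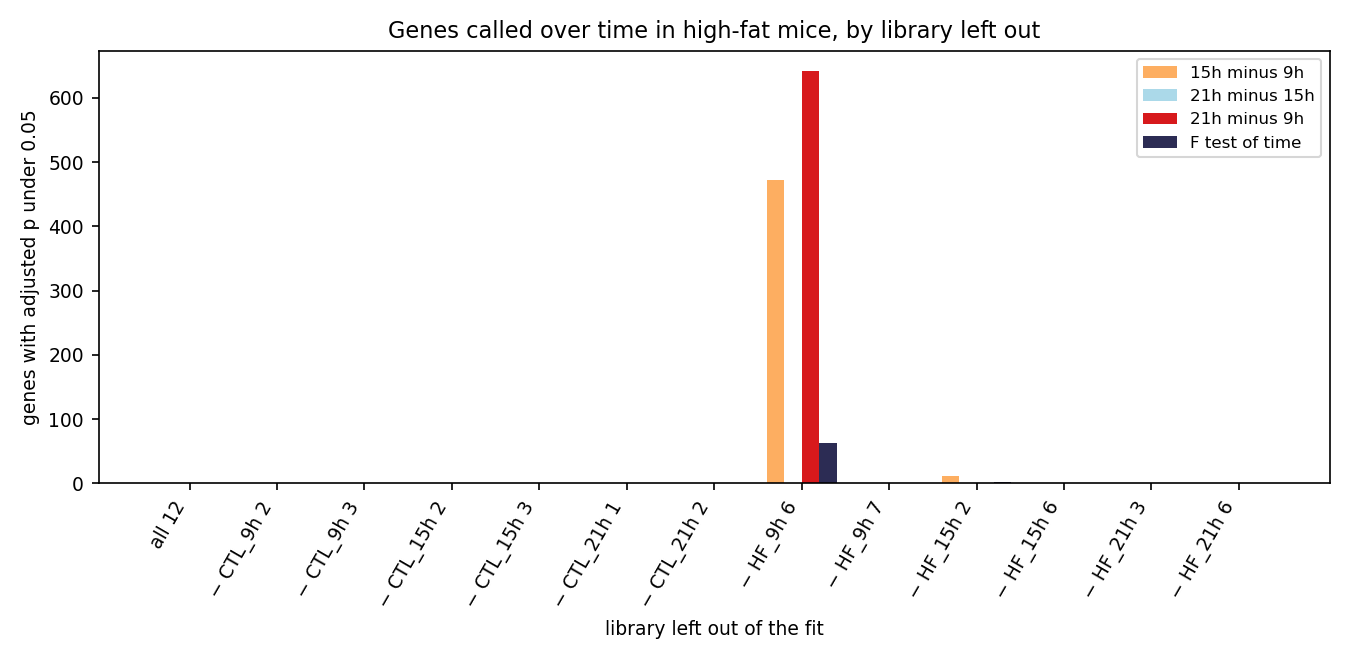
Number of genes with an adjusted p under 0.05 (y axis) in the 4 limma tests of time in high-fat mice (colours), with all 12 libraries and with each left out in turn (x axis; CTL is the standard diet, HF the high-fat diet, and the number after the time is that of the library). The bars reach 472 and 641 without 9h library 6, 11 without 15h library 2, and at most 1 elsewhere.

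High-fat libraries of the same time differed from one another about as much as libraries of different times. The median absolute difference over genes was 0.24 log2 between the 9h libraries, 0.175 between the 15h libraries and 0.131 between the 21h libraries. Across times the 12 pairs of high-fat libraries ranged from 0.129 to 0.249, with a median of 0.157, below the within-time median of 0.175. On the standard diet the order was the other way, with a within-time median of 0.128 and a between-time median of 0.205. The 15h pair had the most genes apart by more than 2-fold, 462, against 212 for the 9h pair and 97 for the 21h pair.

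**Figure D2:**
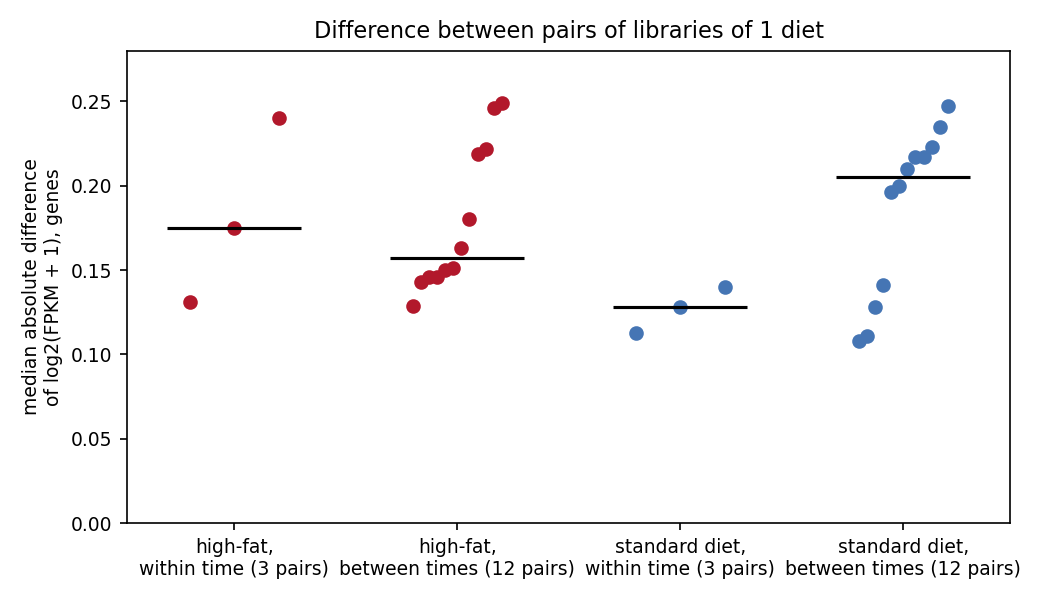
Each point is a pair of libraries of 1 diet, and the y axis gives the median over 13228 genes of the absolute difference in log2(FPKM + 1); black lines mark the median of each column. In high-fat mice the within-time pairs (0.131 to 0.24) lie among the between-time pairs, while the standard-diet within-time pairs (0.113 to 0.14) lie at the low end of theirs.

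The shape of the day was described from the group means of all genes. In high-fat mice the lowest mean lay at 9h for 5729 genes (43.3%), at 15h for 3739 (28.3%) and at 21h for 3760 (28.4%). The highest mean was spread almost evenly, with 4017 (30.4%), 4492 (34.0%) and 4719 (35.7%). The median gene of 9h library 7 lay 0.10 log2 below the mean of all libraries, and that of 9h library 6 lay 0.05 above. The median range of the 3 means was 0.207. These counts were not repeated after median centring, and the part of this offset in them was not tested. The libraries of 1 time lay beyond the other 4 for 4237 genes (32.0%), against 7868 (59.5%) on the standard diet. Libraries in random order would also give such genes, and that share was not computed. The 4237 are therefore not genes shown to differ by time. The range of a gene, from the lowest to the highest of its 3 means, exceeded the largest gap between libraries of 1 time for 3159 genes (23.9%) in high-fat mice and 7017 (53.0%) on the standard diet. It was larger in high-fat than in standard-diet mice for 5037 genes (38.1%), and it reached 1 log2 for 182 genes (1.38%) in high-fat mice and 272 (2.06%) on the standard diet. Of those 182, 123 had a range above the largest gap between libraries of 1 time, and 87 peaked at 9h, 55 at 15h and 40 at 21h. Across genes, which are not independent replicates, the 21h minus 9h differences of the 2 diets had a Pearson correlation of 0.67, the 15h minus 9h differences 0.44 and the 21h minus 15h differences -0.01. The interaction of diet and time called 0 genes (0.0%), while 405 (3.06%) had one below 0.05 before adjustment.

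Among the clock genes, 20 of the 21 listed passed the filter, and none passed the F test of time in high-fat mice. At an unadjusted p under 0.05 there were 8 of 20, beside 8.73% of all genes, and 5 without 21h library 3. Both 9h libraries lay below the other 4 for 7 of the 20, beside 6.83% of all genes. The range of the high-fat means was smaller than that of the standard-diet means for 17 of 20 clock genes, with medians of 0.51 and 0.91 log2, and for 8191 of all 13228 genes. These genes were listed with earlier results known, so the counts are a description. In every list, the counts with a library left out come from a changed fit. The number of all genes at an unadjusted p under 0.05 moved there as well, so 8.73% is not their background.

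Per2 (ENSMUSG00000055866, GRCm38 chr1:91415982-91459324), a repressor of the core loop, was at 3.95 and 2.97 FPKM at 9h, 7.79 and 5.76 at 15h, and 13.3 and 10.9 at 21h, giving libraries 6 and 7, 2 and 6, and 3 and 6 in that order. The 3 times did not overlap, and each later time was above the one before. The difference between 21h and 9h was 1.56 ± 0.18 log2 (SE, 2 libraries per time), with an adjusted p of 0.068 in limma. On the standard diet Per2 spanned a wider range, from 1.31 and 1.63 FPKM at 9h to 15.2 and 13.4 at 21h, and had an adjusted p of 0.0046 in the F test there; without standard-diet 9h library 2 or 21h library 1, no gene passed that test. The interaction of diet and time had an unadjusted p of 0.0055 and an adjusted p of 0.999.

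Per3, a less essential member of the same family, was at 4.86 and 3.22 FPKM at 9h, 13.0 and 7.19 at 15h, and 10.1 and 10.7 at 21h. Both 9h libraries were lowest, and the 15h libraries spanned those of 21h. The 21h minus 9h difference was 1.20 ± 0.28 log2, with an adjusted p of 0.310 in the F test.

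Cry1, the repressor whose promoter is shown above with an E-box and an E-prime box, was at 5.99 and 6.27 FPKM at 9h, 5.76 and 5.97 at 15h, and 11.8 and 9.38 at 21h. It was level over the first 2 times and higher in both 21h libraries, by 0.75 ± 0.14 log2 over 15h (adjusted p 0.740). Cry2, by contrast, stayed between 5.20 and 6.46 FPKM in the 6 libraries.

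Per1 showed a division between libraries rather than times. It was at 23.0 and 21.1 FPKM at 9h, 17.1 and 32.6 at 15h, and 16.2 and 30.2 at 21h. At 15h and at 21h the lower library lay below both 9h libraries and the higher one above them. In the libraries numbered 6 at 15h and 21h the immediate early genes were high as well, as described further on, and Per1 is also known to respond to such acute signals; the part of that in its values was not tested. Without 15h library 6 the difference between its peak and trough times turned from 0.10 to -0.35 log2.

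The nuclear receptor REV-ERBα, from Nr1d1, was at 13.9 and 19.4 FPKM at 9h, 22.9 and 11.7 at 15h, and 7.54 and 7.52 at 21h. Both 21h libraries were lowest and almost equal, which held for 1 of the 20 clock genes and 5.6% of all genes, while the other 2 times overlapped. The 21h minus 9h difference was -1.03 ± 0.36 log2, with an adjusted p of 0.499 in the F test. Nr1d2, which encodes REV-ERBβ, was lowest in the 9h libraries, at 21.0 and 18.1 FPKM, and reached 38.0 and 22.8 at 15h and 24.1 and 26.3 at 21h. On the standard diet its 9h libraries were at 9.30 and 13.4 FPKM, and the interaction had an unadjusted p of 0.036.

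Ciart, a repressor with 3 E-boxes in the window above, was at 8.07 and 8.75 FPKM at 9h, 13.9 and 10.7 at 15h, and 13.2 and 9.55 at 21h. Again both 9h libraries were below the other 4. Bhlhe40 and Bhlhe41, the DEC repressors that compete for E-boxes, overlapped between times, at 19.2 to 34.9 and 10.2 to 14.4 FPKM.

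Of the activators, Npas2 had the order of Per3 turned over. It was at 4.48 and 3.74 FPKM at 9h, 2.07 and 2.58 at 15h, and 2.40 and 2.16 at 21h. Both 9h libraries were above the other 4, and the later times overlapped. The 21h minus 9h difference was -0.64 ± 0.12 log2 in high-fat mice, with an adjusted p of 0.284 in the F test, and -1.11 ± 0.12 on the standard diet, where the F test gave 0.0284, a pass that is also lost without either of those 2 standard-diet libraries.

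Arntl, the gene of BMAL1, was at 5.24 and 3.75 FPKM at 9h, 2.35 and 4.04 at 15h, and 3.06 and 2.46 at 21h. Its 9h mean was the highest, but 15h library 6 overlapped the 9h libraries. Clock stayed between 10.1 and 11.2 FPKM in all 6 libraries. Arntl2, a BMAL1 relative, was highest at 15h, at 2.78 and 2.74 FPKM, beside 2.10 and 0.81 at 9h and 2.08 and 2.65 at 21h; both 15h libraries lay above the other 4, as for 2 of the 20 clock genes and 5.55% of all genes. Of the ROR activators, which compete with REV-ERBs on Arntl, Rora overlapped between times and Rorb was below the filter at 0.066 to 0.19 FPKM.

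Of the output factors, Dbp and Tef were lowest at 9h. Dbp was at 6.25 and 10.0 FPKM at 9h, 26.3 and 10.8 at 15h, and 11.8 and 12.5 at 21h. Library 2 at 15h was more than 2-fold above 15h library 6. Tef, with the E-box shown above, was at 15.8 and 16.8 FPKM at 9h, 31.7 and 18.5 at 15h, and 26.8 and 25.8 at 21h. Over the 4 output genes the median 15h minus 9h difference was 0.35 log2, and 0.68 without 15h library 6. Hlf overlapped between times, and Nfil3, the repressor that competes for D-boxes, was split by library like Per1, with 19.8 and 47.3 FPKM at 15h. The difference between the peak and trough times of Nfil3 turned to -0.47 log2 without 15h library 2.

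**Figure D3:**
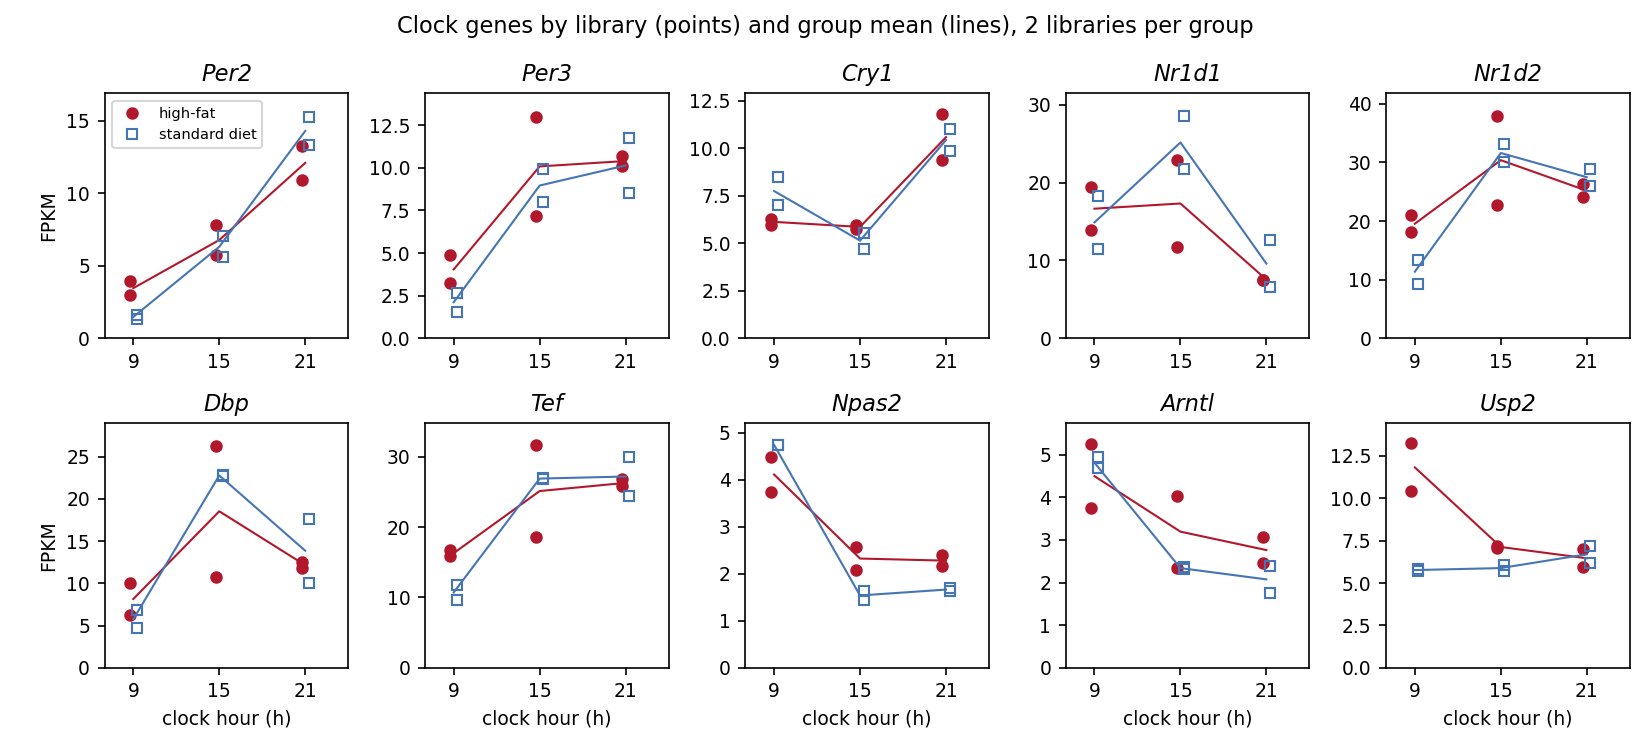
FPKM (y axis) of 10 clock or clock-output genes at 9h, 15h and 21h (x axis, clock hour) in the single libraries; filled red circles are high-fat and open blue squares standard-diet libraries, and lines join the means of 2 libraries. Per2 goes from 3.95 and 2.97 to 13.3 and 10.9 FPKM in high-fat mice, the 15h libraries of Dbp and Nr1d2 are apart, and Usp2 is at 10.4 and 13.2 FPKM at 9h in high-fat mice.

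Beyond the core loop, 7 of 13 genes known to cycle in many tissues had an unadjusted p under 0.05 in high-fat mice, beside 8.73% of all genes, and 4 without 9h library 7. Inmt, a methyltransferase, was at 17.7 and 14.6 FPKM at 9h, 21.2 and 17.7 at 15h, and 33.5 and 34.7 at 21h. Both 21h libraries were highest, and the 21h minus 9h difference was 1.04 ± 0.18 log2, against 1.79 ± 0.18 on the standard diet; the interaction had an adjusted p of 0.999. Inmt, with Per2 and Npas2, made up the 3 genes (0.0227%) that passed the F test of time on the standard diet; 0 passed without standard-diet 9h library 2 or 21h library 1.

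Usp2 (ENSMUSG00000032010, chr9:44067021-44095627), a deubiquitinase, was at 10.4 and 13.2 FPKM at 9h, 7.18 and 7.08 at 15h, and 5.93 and 6.99 at 21h. It had the opposite order of Per2, highest at 9h and lowest at 21h, without overlap. On the standard diet it stayed between 5.68 and 7.21 FPKM, and the interaction had an unadjusted p of 0.0015 and an adjusted p of 0.999. Ppp1r3c, which targets a phosphatase to glycogen, was lowest at 15h, at 6.39 and 9.31 FPKM, beside 22.0 and 35.4 at 9h and 24.9 and 14.3 at 21h; both 15h libraries were lowest for 3 of the 13 genes and for 5.17% of all genes.

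The 20 genes with the smallest p in the F test were mostly high at 9h. Both 9h libraries lay above the other 4 for 18 of the 20 (8.76% of all genes), and the exceptions were Per2 and Cry1. The lowest mean lay at 15h for 11 and at 21h for 8. The sign of the 21h minus 9h difference was the same on the standard diet for 19 of 20, the exception being Usp2, and the high-fat range was the larger one for 15. All 20 were chosen by the same test, so these counts describe them and support nothing. Adjusted p-values of the 20 were 0.221 or 0.284 in limma.

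Myod1 (ENSMUSG00000009471), a master regulator of the muscle lineage, was at 2.25 and 2.01 FPKM at 9h, 0.63 and 0.51 at 15h, and 0.42 and 0.42 at 21h. Myostatin (Mstn), which limits muscle growth, was at 26.3 and 27.1 FPKM at 9h, 14.7 and 8.83 at 15h, and 14.7 and 12.6 at 21h. Both had their 9h libraries apart from the rest, and so did Nexn (a Z-disc protein), Mylk2 (the myosin light chain kinase of skeletal muscle), Fbxo40 (a muscle ubiquitin ligase subunit) and Nmrk2 (a nicotinamide riboside kinase). Mylk2 was at 48.1 and 56.3 FPKM at 9h and between 15.6 and 24.6 at the later times.

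Ear2, a ribonuclease of eosinophils, was at 13.4 and 15.5 FPKM at 9h, 6.99 and 4.20 at 15h, and 10.8 and 9.28 at 21h, the high, low and middle times without overlap. The complement component C7 was at 21.9 and 24.96 FPKM at 9h, 6.27 and 7.97 at 15h, and 11.5 and 12.0 at 21h. Cdc20, an activator of the anaphase-promoting complex, went from 16.7 and 14.7 FPKM at 9h to 14.4 and 12.4 at 15h and 9.38 and 9.05 at 21h. Each of the 3 had its 9h libraries highest, and Cdc20 had its lowest at 21h. Mafa (a MAF family transcription factor), Atp1b2 (a sodium pump subunit), Lynx1 (a modulator of nicotinic receptors), Slc41a3, Eepd1, Ppp1r27 and Prob1 were likewise highest in both 9h libraries.

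Of the skeletal muscle markers, 22 of 24 were tested, and 0 passed the F test in high-fat mice while 19 had an unadjusted p under 0.05, beside 8.73% of all genes. All 22 had lower means at 15h and at 21h than at 9h, and for 21 of 22 both 9h libraries lay above the other 4, beside 8.76% of all genes. The exception was Ttn, the giant sarcomere protein, with 9.33 and 6.15 FPKM at 9h against 5.34 to 6.99 later; it was singled out after its values were seen. The summed markers were at 7490 and 9410 FPKM at 9h, 4500 and 3410 at 15h, and 4360 and 5010 at 21h. In bulk tissue, fewer cells of a type and less RNA per cell cannot be told apart.

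Actn3, the alpha-actinin of fast fibres, was at 142 and 189 FPKM at 9h, 74.4 and 39.8 at 15h, and 61.6 and 73.2 at 21h. Its 21h minus 9h difference was -1.28 ± 0.28 log2 (adjusted F test p 0.284). Ryr1, the calcium release channel of muscle, was at 9.30 and 14.2 FPKM at 9h and between 4.35 and 6.47 later. Myoz1, a Z-disc protein, was at 105 and 111 FPKM at 9h and between 41.5 and 72.4 later. The list's median difference was -1.01 log2 at 15h and -0.75 at 21h, beside 0.03 and 0.04 over all genes, and stayed between -1.22 and -0.82 and between -0.97 and -0.61 over the other settings tried. On the standard diet the medians were -0.54 and -0.63, and the high-fat range was the larger for 18 of 22. The slow-fibre myosin Myh7 and the troponin Tnnc2 were not tested, the first below 0.03 FPKM and the second listed at 0 in 5 high-fat libraries.

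Glycolysis and the respiratory chain leaned the same way as muscle. In glycolysis 17 of 20 genes had a lower mean at 15h than at 9h, with a median of -0.26 log2 (-0.13 without 15h library 2), 6 had an unadjusted p under 0.05, beside 8.73% of all genes, and 0 passed. That count was 9 without 9h library 6 and 3 without 9h library 7. The number of all genes with such a p also rose without 9h library 6 and fell without 9h library 7. Pfkm and Pgam2, the muscle forms of phosphofructokinase and phosphoglycerate mutase, were at 113 and 162 and at 209 and 230 FPKM at 9h. At the later times they lay between 60.5 and 82.2 and between 94.9 and 133 FPKM, below both 9h libraries. Aldoa occurs under 2 gene IDs, and both had their highest values in the 9h libraries; reads shared between them cannot be placed, so either is uncertain.

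For the respiratory chain, all 22 tested genes had a lower mean at 15h than at 9h, with a median of -0.30 log2 (-0.18 without 9h library 7). At 21h 15 of the 22 were lower than at 9h and 7 higher, with a median of -0.16, and 16 were higher than at 15h. Of them 8 had an unadjusted p under 0.05, beside 8.73% of all genes, and 0 passed the F test. The 8 became 13 without 9h library 6 and 2 without 21h library 3. The number of all genes with such a p also rose without 9h library 6 and fell without 21h library 3. Atp5b, an ATP synthase subunit, was at 283 and 331 FPKM at 9h and between 230 and 250 later. Sdha, of complex II, was at 63.4 and 73.8 FPKM at 9h and between 51.2 and 56.7 later. Both were apart at 9h, as the muscle markers were, and the part of muscle in these 2 lists was not tested. Cox6c had another shape, with 45.9 and 54.4 FPKM at 9h, 31.5 and 38.7 at 15h, and 51.6 and 50.9 at 21h, lowest at 15h alone.

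**Figure D4:**
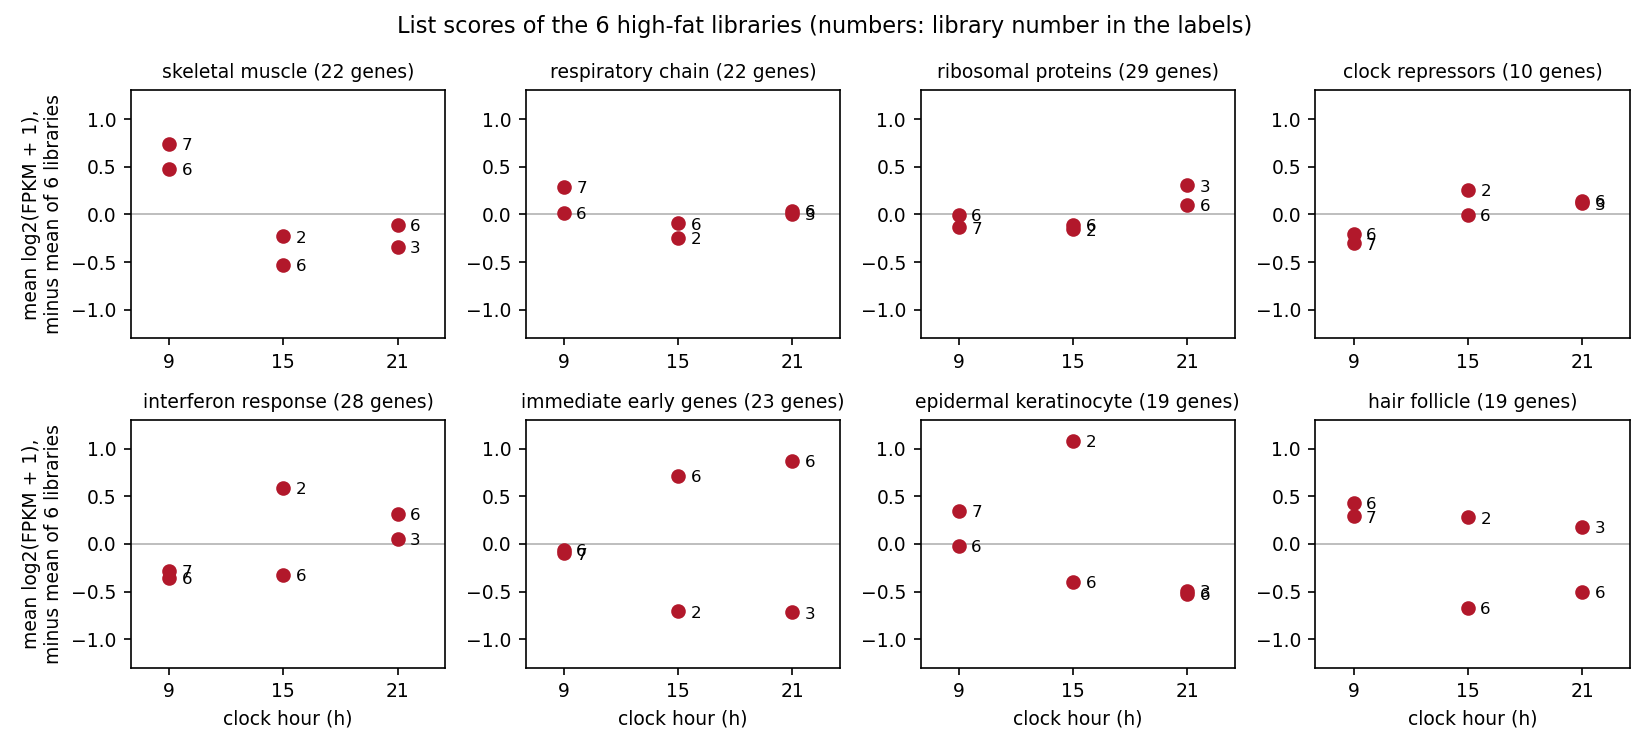
Scores of 8 gene lists in the 6 high-fat libraries, each the mean log2(FPKM + 1) of the list's tested genes minus the mean of the 6 libraries (y axis), by clock hour (x axis); the number beside a point is the library number. Muscle scores are apart at 9h and ribosomal protein scores at 21h, while the immediate early, keratinocyte and hair follicle scores are far apart within 15h, and the immediate early and hair follicle scores also within 21h.

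Transcripts of cytosolic ribosomal proteins were highest at 21h. All 29 tested genes had a higher mean at 21h than at 9h and than at 15h, and for 18 both 21h libraries lay above the other 4, beside 6.55% of all genes. At an unadjusted p under 0.05 there were 10 of 29, beside 8.73% of all genes, and 0 passed. Without 21h library 3 there was 1, and without 9h library 6 there were 16. The number of all genes with such a p also fell without 21h library 3 and rose without 9h library 6. Rps19 was at 78.6 and 71.9 FPKM at 9h, 69.0 and 68.7 at 15h, and 107 and 93.0 at 21h. Rps18 followed with 244 and 233, 201 and 229, and 344 and 283 FPKM, and Rps20 with 137 and 143, 122 and 137, and 194 and 168. In each of the 3, library 3 was the higher of the 21h libraries and the earlier times lay below both. The list's median was 0.28 log2 for 21h against 9h (0.16 without 21h library 3 and 0.15 without 9h library 7) and 0.32 for 21h against 15h (0.19 without 21h library 3). On the standard diet the median for 21h against 9h was 0.43. Ribosomal protein genes have many near-identical pseudogenes, so the split of their reads is uncertain.

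Rpl30, another of this family outside the list, was among the 5 genes with the smallest p for 21h against 15h, with 18.3 and 23.8 FPKM at 15h and 45.4 and 37.6 at 21h. The others were Cry1, Pold4 (a subunit of DNA polymerase delta), Smim22 and Ttc32. Pold4 was at 2.96 and 3.73 FPKM at 9h, 1.46 and 1.84 at 15h, and 4.21 and 3.67 at 21h, lowest in both 15h libraries. All 5 had an adjusted p of 0.740 in limma.

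**Figure D5:**
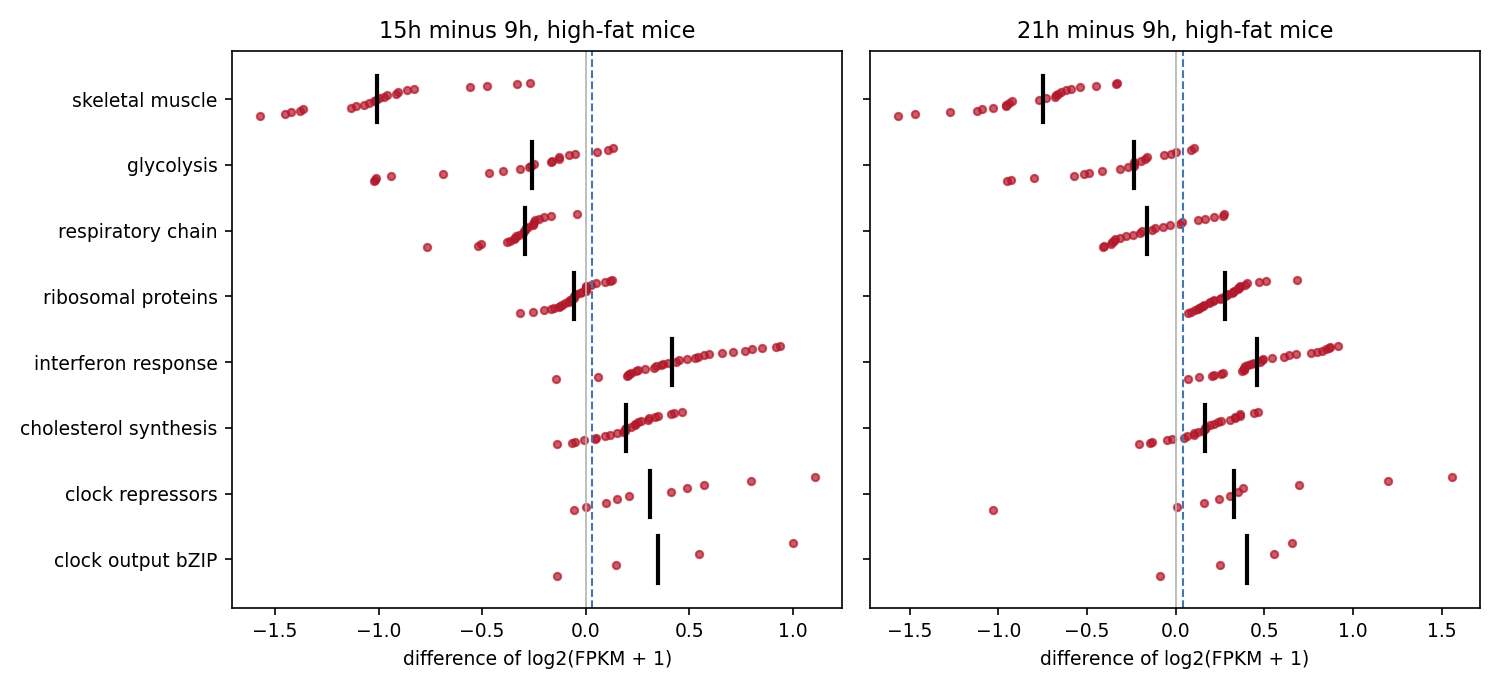
Difference of group means in log2(FPKM + 1) for each tested gene of 8 lists (red points) in high-fat mice, 15h minus 9h (left) and 21h minus 9h (right); black bars are list medians and the blue dashed line is the median of all genes. Muscle genes lie below 0 in both panels (medians -1.01 and -0.75), all ribosomal proteins lie above 0 in the right panel (median 0.28), and none of the single genes passed the adjusted test.

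Lipid synthesis, the main task of the meibomian gland, had small differences between times. In cholesterol synthesis 21 of 25 genes had a higher mean at 15h than at 9h, with a median of 0.20 log2, but 2 had an unadjusted p under 0.05 (8.73% of all genes) and 0 passed. Leaving out a library gave 0 (21h library 3) to 7 (15h library 2). Of all 13228 genes, 7329 had a higher mean at 15h than at 9h. The list's scores were 5.66 and 5.99 at 9h, 5.90 and 6.13 at 15h, and 5.99 and 5.98 at 21h. Only 9h library 6 thus lay below all the later libraries. Hmgcs1, which makes the precursor of mevalonate, was at 265 and 289 FPKM at 9h, 337 and 369 at 15h, and 372 and 342 at 21h. Acat2 was at 118 and 127 FPKM at 9h and between 142 and 163 later. Both genes had their 9h libraries below the other 4, which held for 6 of 25 in the list and 6.83% of all genes.

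In fatty acid synthesis and desaturation 0 of 23 genes had an unadjusted p under 0.05, beside 8.73% of all genes, and the median 15h minus 9h difference was 0.12 log2. The 9h libraries were far apart, with list sums of 6850 and 10400 FPKM, beside 8970 to 9520 later. Meibocyte and sebocyte genes summed to 4070 and 6260 FPKM at 9h and to between 4960 and 5500 later. Among 23 meibocyte and sebocyte genes there were 3 with an unadjusted p under 0.05 (Far1, Fa2h and Soat1), near the share of all genes, and 1 without 21h library 6 to 5 without 9h library 7. Far1, which makes fatty alcohols for wax esters, was at 69.1 and 78.9 FPKM at 9h, 95.9 and 98.5 at 15h, and 86.5 and 80.8 at 21h. Soat1, a sterol esterifying enzyme, was at 107 and 128 FPKM at 9h and between 134 and 179 later. Fa2h, which hydroxylates fatty acids, was lowest at 21h, at 8.54 and 5.52 FPKM, beside 10.96 and 16.3 at 9h and 22.4 and 14.7 at 15h. Fatty acid oxidation genes had medians of -0.13 at 15h and -0.15 at 21h, with 2 of 23 at an unadjusted p under 0.05, near the share of all genes. Without 9h library 6 both that count and the number of all genes with such a p rose. Acadl was at 62.9 and 69.7 FPKM at 9h and between 49.6 and 55.4 later.

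Interferon response genes had their lowest means at 9h for 27 of 28, and all 28 were higher at 21h than at 9h by a median of 0.46 log2. At an unadjusted p under 0.05 there were 2 of 28, near the 8.73% of all genes, and 0 passed. The count was 17 without 15h library 6 and 9 without 15h library 2. Ifih1, a sensor of viral RNA, was at 2.67 and 2.36 FPKM at 9h, 5.12 and 3.59 at 15h, and 3.55 and 3.56 at 21h. Ifit3b was at 2.84 and 5.05 FPKM at 9h, 8.39 and 5.64 at 15h, and 7.41 and 8.24 at 21h. Both had their 9h libraries lowest, which held for 9 of 28 and 6.83% of all genes. Within 15h the libraries disagreed: 26 of 28 genes were higher in library 2 than in library 6, and library 2 was the highest of all 6 for 22. The shares of all genes with these orders were not computed. The median 15h minus 9h difference was 0.42 log2, -0.03 without 15h library 2 and 0.90 without 15h library 6.

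Immediate early genes, which are known as the first genes to respond to a stimulus, differed between libraries of the same time. All 23 tested were higher in 15h library 6 than in 15h library 2, and 22 of 23 were higher in 21h library 6 than in 21h library 3. For 18 these libraries numbered 6 lay above all 4 others. How many of all genes had these orders was not computed. Atf3, a stress-induced transcription factor, was at 7.22 and 8.90 FPKM at 9h, 6.51 and 44.2 at 15h, and 6.52 and 46.8 at 21h. Ier3 was at 41.6 and 59.6, 44.3 and 90.5, and 57.6 and 103 FPKM. Fos, chosen after its values were seen, was at 51.5 and 16.5 FPKM at 9h, 11.4 and 101.4 at 15h, and 6.76 and 162 at 21h. At 15h and at 21h each of the 3 was low in the one library and high in the other, while the list's 9h scores, its mean log2(FPKM + 1), were close, at 4.92 and 4.88. Over time 0 of 23 had an unadjusted p under 0.05, beside 8.73% of all genes, and 12 did with 15h library 6 and 21h library 6 both left out. Standard-diet scores of the list lay between 4.19 and 4.55, and the high-fat scores between 4.26 and 5.85.

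Glucocorticoid targets had a median 15h minus 9h difference of -0.53 log2 (-0.07 without 15h library 2), with 3 of 15 genes at an unadjusted p under 0.05, beside 8.73% of all genes, and 0 passing. Without 15h library 2 or 21h library 3 that count was 0. Fkbp5, a chaperone of the glucocorticoid receptor, was at 9.17 and 17.9 FPKM at 9h, 5.98 and 7.97 at 15h, and 17.9 and 12.2 at 21h. Klf9 was at 30.1 and 36.3 FPKM at 9h and between 19.0 and 25.5 later. Fkbp5 was lowest in both 15h libraries and Klf9 highest in both 9h libraries. The 21h minus 15h median of 0.27 turned to -0.04 without 15h library 2.

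Markers of skin and hair differed between libraries as much as between times. Epidermal keratinocyte genes had scores of 5.59 and 5.96 at 9h, 6.69 and 5.21 at 15h, and 5.12 and 5.09 at 21h, and 15h library 2 was highest for 11 of 19. Their summed FPKM lay closer together, at 5860 and 6030 at 9h, 6930 and 5820 at 15h, and 5760 and 6560 at 21h. The sum is led by high genes, while the score weighs low genes alike. Krt77, a keratin of the epidermis, was at 14.7 and 17.98 FPKM at 9h, 70.8 and 0.458 at 15h, and 0.169 and 0.041 at 21h. The list's 15h minus 9h median of 0.28 log2 was -0.28 without 15h library 2 and 0.96 without 15h library 6, so its sign rested on 1 library. Hair follicle genes were higher in 15h library 2 than in library 6, and higher in 21h library 3 than in library 6, for 19 of 19 genes each. For neither list was the share of all genes with the same order computed. Krt31, a hair shaft keratin, was at 79.4 and 85.0 FPKM at 9h, 61.9 and 29.4 at 15h, and 56.6 and 30.8 at 21h. The hair list's 15h minus 9h median of -0.41 was 0.11 without 15h library 6.

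Other cell types showed further library differences within a time. Macrophage markers summed to 936 and 703 FPKM at 9h, 357 and 1140 at 15h, and 852 and 987 at 21h, and all 14 were higher in 15h library 6 than in 15h library 2. Extracellular matrix genes were higher in 15h library 6 for 21 of 21, and the share of all genes with this order was not computed. The 15h library 2, low in both lists, was the one highest in keratinocyte, interferon, Dbp and Nr1d2 values. Schwann cell genes had 3 of 8 at an unadjusted p under 0.05, beside 8.73% of all genes, and 0 without 9h library 6. Among them Mbp, a myelin protein gene, was at 17.3 and 14.9 FPKM at 9h and between 10.49 and 12.9 later. In the cell cycle list, 3 of 30 genes (Cdc20, Ccnb2 and Aurka) had an unadjusted p under 0.05, near the share of all genes, with 8 without 9h library 7 and 1 without 21h library 6. Of the remaining pathway lists, 4 of 16 heat shock and chaperone genes, 4 of 19 antioxidant genes, 3 of 17 genes of insulin and IGF signalling, 2 of 24 cytokines and chemokines, and 1 of 14 lipid droplet genes had an unadjusted p under 0.05, beside 8.73% of all genes, and 0 passed. With 1 library left out these counts ranged from 2 to 6, 1 to 4, 1 to 6, 0 to 3 and 1 to 5 in that order. The number of all genes with such a p moved with the library left out too. What part the cell types have in the values of the other lists was not tested.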

How the data were processed

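Libraries were made from total RNA (Trizol) with an Illumina kit of NEB, per the labels' protocols. The deposited table holds FPKM values of 21936 genes in 12 libraries; HISAT2 2.0.5, HTSeq 0.9.1, DESeq 1.30.0 and the build mm9 appear, per the submitters' processing notes, while the step from reads to FPKM is not given in the sources used here. Of the gene IDs, 21894 are in GENCODE M21 (GRCm38), and with its merged exon lengths 98.12% of nonzero values were whole reads within 0.02 reads, so its coordinates are used; none was converted. Recovered depth was 14079167 to 17867452 reads, and 1 read on 2 kb was worth 0.0279 to 0.0355 FPKM. 31 symbols occur more than once.

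Values were log2(FPKM + 1), a scale that understates the change of low genes, and 13228 genes exceeding 1 FPKM in 2 or more libraries were kept. limma 3.58.1 (R 4.3.3, mean-dependent prior) was fitted to all 12 libraries with 6 group means and 6 residual degrees of freedom, and p-values were adjusted by Benjamini-Hochberg over all genes; an adjusted p under 0.05 counts as passing. Python 3.11.15 was used for lists and promoters. The scripts were tested on simulated data. An exact permutation test over the 6 high-fat libraries was not run, since too few arrangements exist for it to pass 0.05. The genes named are the clock genes, the 20 with the smallest p in the F test, the 5 with the smallest p of each pairwise comparison, and at most 3 per described list, again by p; other names are said to be chosen after their values were seen or are members of a list whose count is given. Some genes that this rule names are not reported here. The members and lists were chosen with earlier results of these data known. Deviations of same-numbered high-fat libraries correlated at -0.05 and -0.13, and at 0.29 for 15h library 6 with 21h library 6. Such values cannot show whether a shared number marks a shared factor, which was not tested. Alternatives were a pseudocount of 0.1, other filters, single-diet fits, median centring, array weights, a constant prior, limma-voom on recovered reads, a replicate block and leaving out each library; leaving out both libraries high in immediate early genes was added after seeing the data.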

Additional observations from a re-analysis of the deposited data

How the results depend on the processing

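For time in high-fat mice, the F test called 0 genes under all other settings and 0 to 63 with 1 library left out. The comparison of 15h with 9h called 0 except for leave-outs, which gave 0 to 472, and 21h against 15h and the interaction called 0 in every setting that could be fitted. For 21h against 9h, leave-outs gave 0 to 641. Median centring gave 2 (Myod1 and Per2), a constant prior 1 (Myod1), limma-voom on recovered reads 1 (Per2), and leaving out 15h library 6 with 21h library 6 gave 1 (Egr1). The F test on the standard diet, with 3 genes, gave 1 without a filter on low values, 751 in the fit of its 6 libraries only, 1092 with array weights, 0 with the replicate block and 1 without 15h library 6 and 21h library 6, the pair high in immediate early genes; leave-outs gave 0 to 839. The highest leave-out values, 838 and 839, came without either high-fat 9h library, whose array weight was the smallest, 0.4064. The cause was not tested.

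The replicate block of the label numbers left 2 residual degrees of freedom and called 0 genes over time in high-fat mice (1030 at an unadjusted p under 0.05). With it, the difference between peak and trough times of Nfil3 turned to -0.283, the ribosomal protein median for 21h against 9h was 0.09, and the keratinocyte median for 15h against 9h turned to -0.055. For 15h against 9h it gave medians of -1.128 for hair follicle, 0.175 for interferon, -0.126 for respiratory chain, -0.153 for glycolysis and -0.209 for glucocorticoid genes. For 21h against 9h it gave 0.243 for interferon, -0.122 for glycolysis, -0.957 for hair follicle and 0.209 for clock repressor genes. The peak minus trough differences became 2.562 for Atf3 and 0.635 for Per1. Genes at an unadjusted p under 0.05 became 16 of 23 immediate early, 14 of 19 hair follicle, 8 of 30 cell cycle, 6 of 25 cholesterol, 3 of 22 respiratory chain, 3 of 20 clock and 2 of 29 ribosomal protein genes. Array weights gave 11 of 22 muscle markers. No block could be fitted to the high-fat libraries alone, which share 1 number over the 3 times. Leaving out 1 library turned some log2 values, and their leave-out ranges were -0.262 to 2.408 for Atf3, -0.467 to 0.746 for Nfil3, -0.345 to 0.543 for Per1, -0.034 to 0.901 for the interferon median at 15h against 9h, -0.041 to 0.624 for the glucocorticoid median at 21h against 15h, and for 15h against 9h -0.280 to 0.963 for keratinocyte and -0.989 to 0.111 for hair follicle genes. Leaving out that pair together gave the same values for Atf3 (-0.262), Per1 (-0.345) and hair follicle (0.111). Depth limits low genes, since 1 read on 2 kb was worth 0.0279 to 0.0355 FPKM; how this compares with the spread between libraries was not tested.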
